A study of Mus musculus with 10 samples.

Results

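The genes described here code for ligands, receptors and an extracellular inhibitor of TGF-beta, myostatin and activin signaling: *Tgfb1*, *Tgfb2*, *Tgfb3*, *Mstn*, *Fst*, *Tgfbr1*, *Tgfbr2*, *Tgfbr3*, *Acvr2a* and *Acvr2b*. They were chosen by symbol, and all 10 were found among the 55359 genes of the count table, each under 1 identifier. C2C12, a mouse myoblast line whose cells leave the cell cycle and fuse into myotubes when serum is reduced, was transfected with 100 nM of an siRNA against *Fndc1* (si-*Fndc1*, 5 libraries) or of a scrambled siRNA (si-Control, 5 libraries). Cells of both groups were kept for 4 days in differentiation medium with horse serum, and polyA mRNA was sequenced. The sample labels give the day of differentiation, while the description of the series gives an earlier harvest, counted from transfection. The methods list 1 siRNA sequence against *Fndc1*. The methods state in general that experiments were repeated independently, but no source says of these libraries that they came from separate cultures, and p-values therefore measure only the spread between these libraries, which may be technical.

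TGF-beta ligands are secreted in a latent form, held by their own propeptide and by latent TGF-beta binding proteins, and once released they bring together type I and type II receptor kinases, which phosphorylate Smad2 and Smad3. Activins and myostatin signal to the same Smads through activin type II receptors, and follistatin binds these ligands and keeps them from the receptors. In skeletal muscle, myostatin restrains growth, and TGF-beta is known to hold back the differentiation and fusion of myoblasts.

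The targeted gene was examined first. *Fndc1* was measured at 26.7, 24.7, 28.7, 29.6 and 29.2 FPKM (fragments scaled to transcript length and library size) in si-Control and at 20.4, 23.5, 20.8, 21.1 and 18.7 FPKM in si-*Fndc1*. No si-*Fndc1* library reached the level of a si-Control library, but most of the transcript remained. The log2 fold change was -0.40 (95% interval -0.55 to -0.26, adjusted p = 0.000934). Adjusted p-values here are from the quasi-likelihood test of edgeR, by Benjamini-Hochberg over all tested genes. In a fit with GC content and length taken into account (GC and length correction) it was -0.02 (adjusted p = 0.759), and the call was lost. The GC content of *Fndc1* transcripts is 62.5%, against a median of 51.0% over the tested genes.

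The si-Control libraries held 66771605 to 75995168 counts each, and the si-*Fndc1* libraries 56332844 to 72839369. Of 13548 genes with a mean of at least 0.5 FPKM, 4663 passed an adjusted p-value of 0.05 (34.4%), 2338 of them higher (17.3%) and 2325 lower (17.2%) in si-*Fndc1*, and the size of a called change had a median of 0.29 on the log2 scale. The FPKM ranges of the groups did not overlap in 3401 genes (25.1%). Across tested genes the log2 fold change ran against GC content (Spearman's rho -0.53, a description over genes of the same 10 libraries), and with the correction 2672 of 11185 genes passed (23.9%), 1343 of them lower in si-*Fndc1* (12%). Of 15 muscle markers, 14 passed the filter, and the summed FPKM of the list was 6816 to 7214 in the control libraries, against 7116 to 7970 in the knockdown libraries. Of the 14, 5 rose (*Myod1*, *Mymk*, *Ckm*, *Tnnt1* and *Mylpf*) and *Mymx* fell, against 17.3% and 17.2% of all tested genes. With the correction 4 were higher and 3 lower, against 23.9% of all genes called in either direction. *Mymk* lost its call (adjusted p = 0.1485). *Myog* (log2 fold change -0.17) and *Myf5* (-0.21) were then called lower beside *Mymx*. Of 22 liver markers, 20 passed the filter, all but *Alb* and *F2* only through their level in si-*Fndc1*, so their calls are not counted here. The summed FPKM of the liver markers was 1.47 to 9.37 over the si-Control libraries, against 66.2 to 222 over the si-*Fndc1* libraries, and none was at 0 in all libraries. Of the markers of other cells, 0 of 6 adipocyte, 2 of 8 blood and macrophage and 0 of 5 endothelial genes passed the filter. Of the 2 tested, 0 were called by edgeR or DESeq2 or at an unadjusted p-value under 0.05. *Adipoq*, *Ptprc* and *Cdh5* had 0 counts in every library. Across the knockdown libraries the blood marker *Hbb-bs*, below the filter and named after its values were seen, had 7, 36, 33, 29 and 0 counts. The control libraries held 0, 1, 0, 0 and 0 counts of it. The summed FPKM of the blood and macrophage list overlapped between the groups (controls 1.18 to 2.31, knockdown 1.92 to 2.99). What part liver transcripts or GC content have in the changes below was not tested.

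Of the 10 genes, 8 passed the filter on low values, and 3 of these 8 were called, against 34.4% of all tested genes: *Tgfb2* rose, and *Tgfb3* and *Tgfbr3* fell. *Mstn* and *Acvr2b* were below the filter. The median log2 fold change of the 8 was 0.09, against 0.00 over all tested genes. The FPKM ranges of the groups did not overlap in 2 of the 8, about the share over all tested genes (25.1%). In these cultures, fewer cells with a transcript and less of it per cell cannot be told apart. The changes that were called were small, from a fall to 0.82 times to a rise to 1.12 times the si-Control level.

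**Figure D1:**
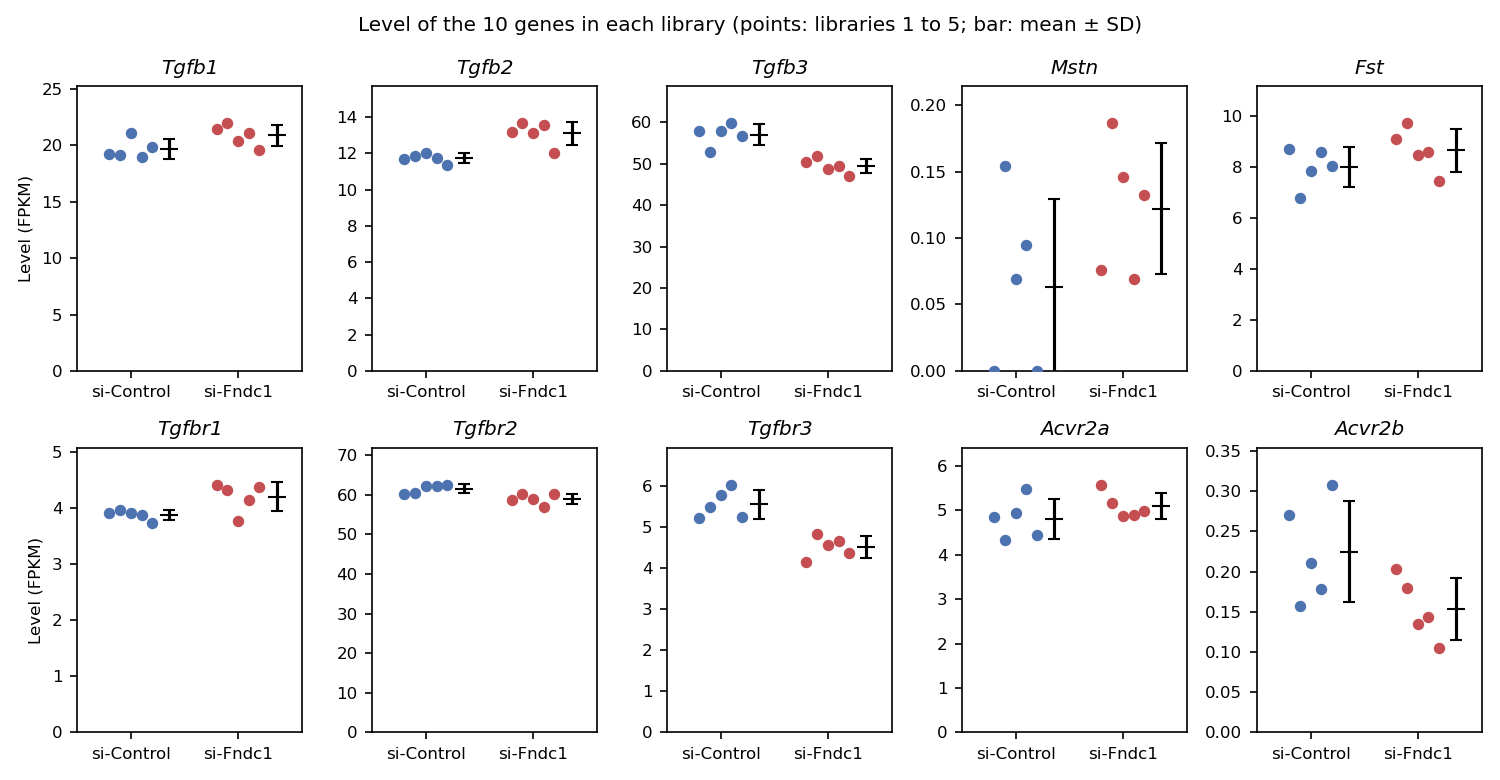
FPKM (y axis, from 0 and scaled for each gene) of the 10 genes in the 5 si-Control libraries (blue) and the 5 si-*Fndc1* libraries (red), each point 1 library, with mean ± SD beside them (the lower SD of *Mstn* in si-Control passes below 0 and ends at the axis). The groups are apart for *Tgfb3* (52.9 to 59.8 against 47.0 to 51.8 FPKM) and *Tgfbr3* (5.22 to 6.04 against 4.15 to 4.85 FPKM) and overlap for the other 8 genes.

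By FPKM, which is scaled to length, *Tgfbr2* (61.5 ± 1.18 FPKM, SD, n = 5) and *Tgfb3* (57.0 ± 2.54 FPKM) stood highest in si-Control. *Tgfb1* and *Tgfb2* came next, then *Fst*, *Tgfbr3*, *Acvr2a* and *Tgfbr1*, with *Acvr2b* and *Mstn* last. In this order only the neighbours *Tgfbr3* and *Acvr2a* had overlapping ranges. In si-*Fndc1* the order of these 2 genes was turned, *Acvr2a* (4.87 to 5.58 FPKM) lying above *Tgfbr3* (4.15 to 4.85 FPKM), and the neighbours whose ranges overlapped were *Tgfbr3* with *Tgfbr1* and *Acvr2b* with *Mstn*.

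Among the ligands, the promoters of *Tgfb1*, *Tgfb2* and *Mstn* are printed to show how unlike they are in the letters that Smads and myogenic factors read. RefSeq promoter windows (build GRCm38.p6) were found for 7 of the 10 genes, and *Tgfb3*, *Tgfbr3* and *Fst* had no entry. The 250 bases before the start are given 5′ to 3′ on the gene's strand, with E-boxes (CANNTG, the core that MyoD and myogenin bind) and Smad boxes (CAGAC or its reverse complement GTCTG) in capitals. The windows are chr7:25686752-25687001 on the plus strand for *Tgfb1*, chr1:186705990-186706239 on the minus strand for *Tgfb2* and chr1:53061390-53061639 on the plus strand for *Mstn*.

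Tgfb1: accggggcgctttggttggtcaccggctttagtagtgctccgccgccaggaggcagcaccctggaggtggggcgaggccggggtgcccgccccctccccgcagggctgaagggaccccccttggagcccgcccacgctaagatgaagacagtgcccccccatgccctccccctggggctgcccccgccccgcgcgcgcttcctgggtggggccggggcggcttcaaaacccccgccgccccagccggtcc

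Tgfb2: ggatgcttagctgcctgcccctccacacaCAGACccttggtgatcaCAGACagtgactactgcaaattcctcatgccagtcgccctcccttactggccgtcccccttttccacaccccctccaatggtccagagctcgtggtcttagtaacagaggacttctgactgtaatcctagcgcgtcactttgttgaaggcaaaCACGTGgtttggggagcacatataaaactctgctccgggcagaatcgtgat

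Mstn: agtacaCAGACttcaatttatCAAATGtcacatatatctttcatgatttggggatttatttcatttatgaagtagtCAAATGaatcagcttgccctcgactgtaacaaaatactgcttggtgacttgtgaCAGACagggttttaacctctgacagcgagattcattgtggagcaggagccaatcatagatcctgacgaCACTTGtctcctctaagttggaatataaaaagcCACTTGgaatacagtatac

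Both strands were searched, and the motifs may overlap. The *Tgfb1* window is 75.2% GC, holds no E-box and no Smad box, and has 1 match to a GC-rich Smad site (GGCGC or GCGCC) 245 to 241 bases before the start. The *Tgfb2* window is 53.6% GC, with 1 E-box 51 to 46 bases before the start and 2 Smad boxes 221 to 217 and 204 to 200 bases before it. The *Mstn* window is 38.4% GC and has 4 E-boxes, 229 to 224, 174 to 169, 52 to 47 and 19 to 14 bases before the start, and 2 Smad boxes, 244 to 240 and 120 to 116 bases before it. Among the receptors, 0 of the 4 windows (*Tgfbr1*, *Tgfbr2*, *Acvr2a* and *Acvr2b*) hold an E-box, and those of *Tgfbr2*, *Acvr2a* and *Acvr2b* hold 1 Smad box each. Over 27018 promoter windows, 66.1% hold an E-box, 42.1% a Smad box and 32.1% the GC-rich site, and the median GC content is 52.0%. These are matches of letters, not sites of binding.

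*Tgfb3* (ENSMUSG00000021253, listed at chr12:86103519-86125815, minus strand) codes for the TGF-beta isoform with the highest level in these cells. It was measured at 57.8, 52.9, 57.9, 59.8 and 56.8 FPKM in si-Control and at 50.3, 51.8, 48.6, 49.5 and 47.0 FPKM in si-*Fndc1*. All 5 si-*Fndc1* libraries were below all 5 of si-Control, the closest pair being si-Control 2 and si-*Fndc1* 2. The mean was 57.0 ± 2.54 FPKM in si-Control and 49.4 ± 1.80 FPKM in si-*Fndc1* (SD, n = 5), and the log2 fold change was -0.20 (standard error 0.04, 95% interval -0.28 to -0.11, adjusted p = 0.00273). *Tgfb3* transcripts have a GC content of 53.0%, and the log2 fold change was -0.18 with the GC and length correction (adjusted p = 0.0102). It was called without each library in turn, with log2 fold changes of -0.23 to -0.18.

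*Tgfb2* (ENSMUSG00000039239, listed at chr1:186354989-186438186, minus strand) codes for the isoform that depends most on the co-receptor betaglycan. Its levels were 11.70, 11.86, 12.05, 11.77 and 11.35 FPKM in si-Control and 13.18, 13.67, 13.11, 13.57 and 12.05 FPKM in si-*Fndc1*. Of the si-*Fndc1* libraries, 4 were above every si-Control library, and si-*Fndc1* 5 lay at the level of si-Control 3. The mean was 11.8 ± 0.256 FPKM in si-Control and 13.1 ± 0.644 FPKM in si-*Fndc1* (SD, n = 5), a log2 fold change of 0.17 (standard error 0.04, 95% interval 0.08 to 0.26, adjusted p = 0.00845). The call was lost with the GC and length correction (log2 fold change 0.12, adjusted p = 0.0549).

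*Tgfb1* (ENSMUSG00000002603, listed at chr7:25386427-25404502, plus strand) codes for the isoform most studied in fibrosis. It was measured at 19.2, 19.2, 21.1, 19.0 and 19.8 FPKM in si-Control and at 21.4, 22.0, 20.3, 21.1 and 19.5 FPKM in si-*Fndc1*. The groups overlapped, with si-Control 3 among the si-*Fndc1* libraries and si-*Fndc1* 5 among those of si-Control. The log2 fold change was 0.09 (standard error 0.04, 95% interval 0.00 to 0.19, adjusted p = 0.108) and was not called. It passed without si-Control 3 (adjusted p = 0.0493) and without si-*Fndc1* 5 (adjusted p = 0.0396), and with the GC and length correction it was 0.31 (adjusted p = 0.000124). *Tgfb1* transcripts have a GC content of 58.2%, above the upper quartile of the tested genes (55.4%).

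As a share of the summed FPKM of the TGF-beta isoforms, *Tgfb3* took 63.0% to 66.0% in the si-Control libraries, against 58.8% to 59.8% in the knockdown. *Tgfb1* took 24.8% to 25.2% in the knockdown, against 21.0% to 23.2% in si-Control, and *Tgfb2* took 15.3% to 16.1%, against 12.9% to 14.1%. None of these shares overlapped between the groups. The shares of a library are tied to each other, since a lower *Tgfb3* share raises the others, and they are not separate results. In FPKM itself *Tgfb1* and *Tgfb2* overlapped between the groups. The sum of the 3 isoforms was 88.4 ± 2.82 FPKM in si-Control and 83.4 ± 3.32 FPKM in si-*Fndc1* (SD, n = 5), with overlapping ranges (83.9 to 91.0 and 78.6 to 87.4 FPKM). The shares are a description of the levels above and were not tested.

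**Figure D2:**
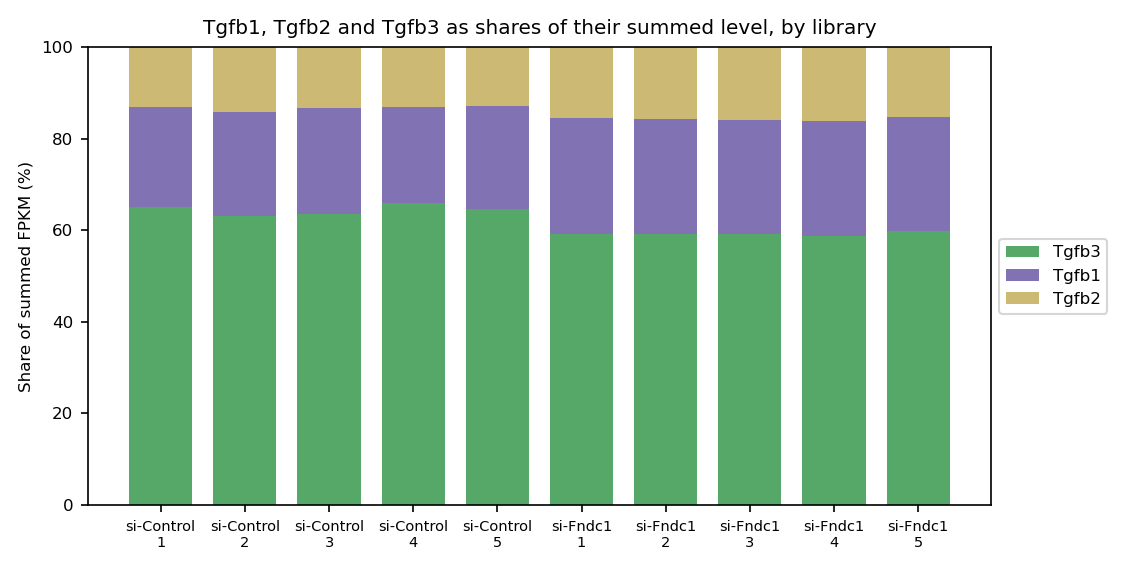
Share (y axis, percent) of *Tgfb3*, *Tgfb1* and *Tgfb2* in their summed FPKM, 1 stacked bar for each of the 10 libraries. The *Tgfb3* segment reaches 63.0% to 66.0% in the si-Control libraries, against 58.8% to 59.8% in the si-*Fndc1* libraries.

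*Mstn* (ENSMUSG00000026100, listed at chr1:53100799-53107238, plus strand), which codes for myostatin, was near the limit of detection. It had 0, 33, 15, 21 and 0 reads in si-Control and 17, 41, 31, 15 and 23 reads in si-*Fndc1*. Reads were thus found in 3 of 5 si-Control and 5 of 5 si-*Fndc1* libraries, and the groups overlapped, all 3 si-Control libraries with reads lying within the si-*Fndc1* range. A count of 0 allows up to 0.0395 CPM (counts scaled to library size) in si-Control 1 and 0.0449 in si-Control 5 (3 reads over the total, counting error only), against 0.209 to 0.563 CPM in si-*Fndc1*. The mean was 0.0635 ± 0.0657 FPKM in si-Control and 0.122 ± 0.0493 FPKM in si-*Fndc1* (SD, n = 5). In the test with no filter, in which 4164 of 28952 genes passed (14.4%), the log2 fold change was 0.95 with a 95% interval from -1.08 to 2.98 (adjusted p = 0.545), so neither a fall nor a rise could be told at this depth.

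*Fst* (ENSMUSG00000021765, listed at chr13:114588826-114595487, minus strand) codes for follistatin, the secreted antagonist of activins and myostatin. It was measured at 8.69, 6.77, 7.86, 8.60 and 8.05 FPKM in si-Control and at 9.11, 9.71, 8.47, 8.57 and 7.44 FPKM in si-*Fndc1*. The 2 highest libraries were si-*Fndc1* 2 and 1 and the lowest was si-Control 2, but the groups overlapped. The log2 fold change was 0.12 (standard error 0.08, 95% interval -0.06 to 0.31, adjusted p = 0.282), an interval that reaches from a small fall to a rise larger than that of *Tgfb2*.

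Among the receptors, *Tgfbr3* (ENSMUSG00000029287, listed at chr5:107254436-107437495, minus strand) was the one that was called. It codes for betaglycan, a co-receptor without kinase that presents TGF-beta to the type II receptor. Its levels were 5.22, 5.50, 5.80, 6.04 and 5.25 FPKM in si-Control and 4.15, 4.85, 4.58, 4.68 and 4.39 FPKM in si-*Fndc1*. The groups did not overlap, with si-*Fndc1* 1 lowest and si-Control 4 highest. The mean was 5.56 ± 0.356 FPKM in si-Control and 4.53 ± 0.269 FPKM in si-*Fndc1* (SD, n = 5), and the log2 fold change was -0.29 (standard error 0.06, 95% interval -0.42 to -0.16, adjusted p = 0.00341). It was -0.30 with the GC and length correction (adjusted p = 0.00399), and leaving out each library in turn gave -0.32 to -0.26, with the call kept each time.

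*Tgfbr2* (ENSMUSG00000032440, listed at chr9:115913361-116004428, minus strand) codes for the type II kinase that binds TGF-beta and phosphorylates the type I receptor. It was measured at 60.1, 60.3, 62.3, 62.3 and 62.6 FPKM in si-Control and at 58.7, 60.1, 58.9, 57.0 and 60.1 FPKM in si-*Fndc1*. The ranges met at about the level of si-Control 1 and si-*Fndc1* 2. The log2 fold change was -0.05 (standard error 0.03, 95% interval -0.11 to 0.00, adjusted p = 0.138), the narrowest interval of the 8 tested genes.

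*Tgfbr1* (ENSMUSG00000007613, listed at chr4:47353222-47414931, plus strand) codes for the type I kinase, which phosphorylates the Smads. Its levels were 3.92, 3.98, 3.91, 3.88 and 3.73 FPKM in si-Control and 4.42, 4.33, 3.77, 4.14 and 4.38 FPKM in si-*Fndc1*. In si-*Fndc1*, 4 libraries were above all of si-Control and si-*Fndc1* 3 lay among them. The log2 fold change was 0.12 (standard error 0.05, 95% interval 0.01 to 0.23, adjusted p = 0.0802) and was called without si-*Fndc1* 3 (adjusted p = 0.0180). It was -0.01 with the GC and length correction (adjusted p = 0.883), the GC content of its transcripts being 43.4%, below the lower quartile of the tested genes (46.3%).

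*Acvr2a* (ENSMUSG00000052155, listed at chr2:48704121-48793281, plus strand) codes for a type II receptor of activins. It was measured at 4.84, 4.32, 4.94, 5.48 and 4.44 FPKM in si-Control and at 5.58, 5.15, 4.87, 4.90 and 4.97 FPKM in si-*Fndc1*. The groups overlapped widely, si-Control 4 lying above 4 of the 5 si-*Fndc1* libraries. The log2 fold change was 0.09 (standard error 0.07, 95% interval -0.06 to 0.24, adjusted p = 0.328) and turned to -0.12 with the GC and length correction (adjusted p = 0.242). The gene shares 446 bases with the opposite-strand gene *Orc4*, which had a log2 fold change of 0.47 (adjusted p = 0.000165) and is named after its values were seen, and since the use of strand in counting is not stated, the assignment of reads in this stretch is uncertain. *Tgfb2*, *Tgfb3*, *Tgfbr3*, *Fst* and *Acvr2b* overlap only predicted genes with at most 21.6 counts on average.

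*Acvr2b* (ENSMUSG00000061393, listed at chr9:119231184-119264061, plus strand), the type II receptor that binds myostatin with high affinity, was far lower than *Acvr2a*. It had 91, 51, 68, 59 and 92 reads in si-Control and 64, 59, 42, 46 and 26 reads in si-*Fndc1*. The 2 highest libraries were si-Control 5 and 1 and the 3 lowest were of si-*Fndc1*, with an overlap between. Its mean was 0.225 ± 0.0631 FPKM in si-Control and 0.153 ± 0.0386 FPKM in si-*Fndc1* (SD, n = 5), and in the test with no filter the log2 fold change was -0.56 (95% interval -1.12 to 0.01, adjusted p = 0.198).

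**Figure D3:**
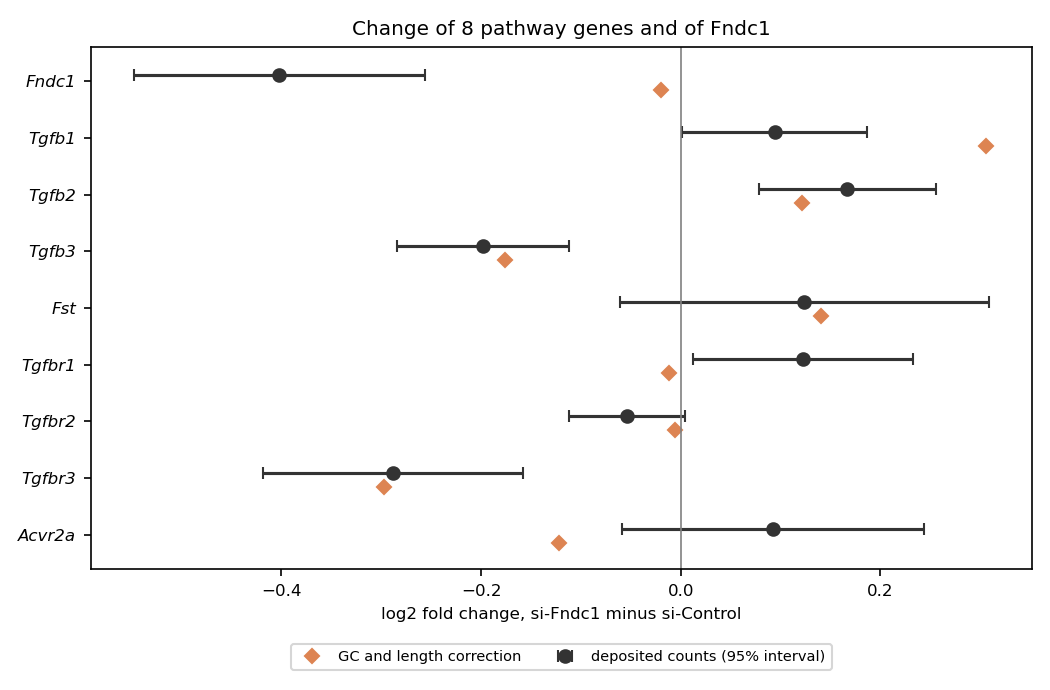
log2 fold change (x axis, si-*Fndc1* minus si-Control) of *Fndc1* and the 8 tested genes by edgeR, from the deposited counts with the 95% interval (black) and with the GC and length correction (orange, no interval drawn). *Tgfb3* and *Tgfbr3* lie below 0 both ways, *Tgfb1* moves from 0.09 to 0.31, and *Tgfbr1* and *Acvr2a* move from above to below 0.

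After the GC and length correction, 3 of the 8 tested genes were again called, against 23.9% of all genes in that fit, but they were *Tgfb1* (higher), *Tgfb3* and *Tgfbr3* (lower). The falls of *Tgfb3* and *Tgfbr3* were thus called both ways, while *Tgfb1* and *Tgfb2* changed sides of the threshold without a change of direction. The liver markers given above move with the groups. The si-*Fndc1* library with the lowest liver level (number 5, 66.2 FPKM, against 121 to 222 FPKM in the other 4) also had the lowest total count (56332844). Within its group it was lowest for *Tgfb1*, *Tgfb2*, *Tgfb3*, *Fst* and *Acvr2b* and not for the other 5 genes. Of these, *Tgfb1*, *Tgfb2* and *Fst* had log2 fold changes above 0, and *Tgfb3* and *Acvr2b* below 0. This library was also lowest for *Fndc1* (18.7 FPKM, against 20.4 to 23.5 FPKM in the other 4).

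The tested genes with profiles most like that of *Tgfb3* over the 10 libraries, by the root mean square difference of log2 CPM centred for each gene, were *Heatr5a* (0.0200), *Lamc1* (0.0215) and *Baz1b* (0.0220). *Lamc1* codes for a laminin chain of basement membranes. Their log2 fold changes were -0.20, -0.20 and -0.21, beside -0.20 for *Tgfb3*. This likeness follows from the choice, since the measure includes the difference between the groups.

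Other genes of the pathway were examined in 5 lists. Of 11 other ligands, 5 passed the filter, 1 rose and 1 fell, against 34.4% of all tested genes called. Both that changed are activin subunits: *Inhbb* went from 69.0 ± 2.54 to 56.2 ± 1.26 FPKM (SD, n = 5 in each group), a log2 fold change of -0.29 (adjusted p = 9.9e-05), and *Inhba* went from 14.3 ± 0.287 to 15.9 ± 0.680 FPKM, a log2 fold change of 0.16 (adjusted p = 0.00341). The corrected values were -0.03 for *Inhbb* (adjusted p = 0.551), which lost its call, and 0.28 for *Inhba* (adjusted p = 0.000151). *Gdf11*, a close relative of *Mstn*, was at 18.0 FPKM in si-Control and 16.6 FPKM in si-*Fndc1* (log2 fold change -0.11, adjusted p = 0.0778). Of 5 other receptors, 2 were tested and 0 were called by edgeR or DESeq2 or at an unadjusted p-value under 0.05; *Acvr1b*, the activin type I receptor, had a log2 fold change of -0.11 (adjusted p = 0.259) and *Eng*, which codes for endoglin, of -0.03 (adjusted p = 0.851).

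Genes in a list for proteins that bind the ligands, hold them latent, or process or release them (among these *Bmp1*, *Furin* and *Thbs1*) were mostly lower. Of 17 in the list, 12 were tested, 9 fell and 1 rose, against 17.2% and 17.3% of all tested genes, and the median log2 fold change was -0.29. *Ltbp4*, a latent TGF-beta binding protein, went from 13.5 ± 0.556 to 9.19 ± 0.670 FPKM (log2 fold change -0.55, adjusted p = 4.2e-05). *Fstl3*, which like follistatin binds activins and myostatin, went from 24.8 ± 1.30 to 18.8 ± 0.371 FPKM (log2 fold change -0.39, adjusted p = 7.0e-05). *Dcn*, which codes for decorin, a matrix proteoglycan that binds TGF-beta, rose from 15.5 ± 0.340 to 20.2 ± 0.949 FPKM (log2 fold change 0.39, adjusted p = 2.9e-05). The other 7 that fell, named after their values were seen, were *Ltbp1*, *Ltbp2*, *Ltbp3*, *Lrrc32*, *Bmp1*, *Thbs1* and *Bgn*, with log2 fold changes of -0.37 (*Ltbp2*) to -0.12 (*Bgn*). After the GC and length correction 4 of the 12 were lower, against 12% of all genes in that fit, and 1 was higher, with a median of -0.07: the calls were *Ltbp4* at -0.22, *Fstl3* at -0.22, *Thbs1* at -0.19, *Lrrc32* at -0.17 and *Dcn* at 0.23.

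Of 17 genes for Smads and their regulators, 16 were tested, 3 fell and 1 rose, against 17.2% and 17.3% of all tested genes. After the GC and length correction 1 was lower and 2 were higher, against 23.9% of all genes in that fit called in either direction. *Smad7*, the inhibitory Smad, went from 4.86 ± 0.206 to 3.43 ± 0.201 FPKM, a log2 fold change of -0.49 (adjusted p = 1.0e-04) and of -0.27 with the GC and length correction (adjusted p = 0.00304). *Pmepa1*, a membrane protein that limits Smad signaling, had a log2 fold change of -0.18 (adjusted p = 0.00158) but of 0.11 with the correction (adjusted p = 0.00904), and the Smad repressor *Ski* had -0.13 (adjusted p = 0.0283) and 0.04 (adjusted p = 0.472). The call of *Ski* was also lost without si-Control 3 or 5 or si-*Fndc1* 3, 4 or 5 (adjusted p up to 0.0724). The gene that rose, named after its values were seen, was *Tgif1*, a repressor that binds Smads, with a log2 change of 0.20 (adjusted p = 0.0422). *Smad2*, *Smad3* and *Smad4*, also named after their values were seen, were not called, with log2 fold changes of 0.38 (standard error 0.22), -0.06 (standard error 0.04) and -0.09 (standard error 0.07). For *Smad2*, si-*Fndc1* 2 stood apart at 6.16 FPKM. The other si-*Fndc1* libraries were at 2.65 to 2.99 FPKM, and those of si-Control at 2.59 to 2.82 FPKM.

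Of 19 genes that respond to TGF-beta in many cells, 18 were tested, 3 rose and 5 fell, against 17.3% and 17.2% of all tested genes, with a median log2 fold change of 0.03. Those with the smallest p-values were *Col1a1* and *Col1a2*, the chains of type I collagen, at -0.78 (adjusted p = 6e-06) and -0.35 (adjusted p = 0.000131), and the transcription factor gene *Jun* at -0.28 (adjusted p = 0.000426). After that correction *Col1a1* was called at -0.50 (adjusted p = 1.4e-05), and *Col1a2* at -0.09 (adjusted p = 0.109) and *Jun* at -0.09 (adjusted p = 0.0630) were not. *Ccn2*, a widely used readout of TGF-beta and likewise named after its values were seen, was not called, with a log2 fold change of 0.14 (standard error 0.10). The other calls, named after their values were seen, were *Postn* (0.19), *Timp1* (0.15) and *Lox* (0.13), which rose, and *Fn1* (-0.14) and *Col3a1* (-0.21), which fell. Of these 5, only *Lox* was called after the correction (0.17), while *Postn* was at 0.11 (adjusted p = 0.185), *Timp1* at -0.02 (adjusted p = 0.667), *Fn1* at 0.05 (adjusted p = 0.183) and *Col3a1* at -0.08 (adjusted p = 0.119). The corrected fit called 3 genes of the list higher and 4 lower, against 23.9% of all genes in either direction, and besides *Col1a1* and *Lox* these were *Loxl2* (0.22), *Cald1* (0.14), *Snai2* (-0.21), *Tagln* (-0.16) and *Acta2* (-0.08), which were not called without it.

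**Figure D4:**
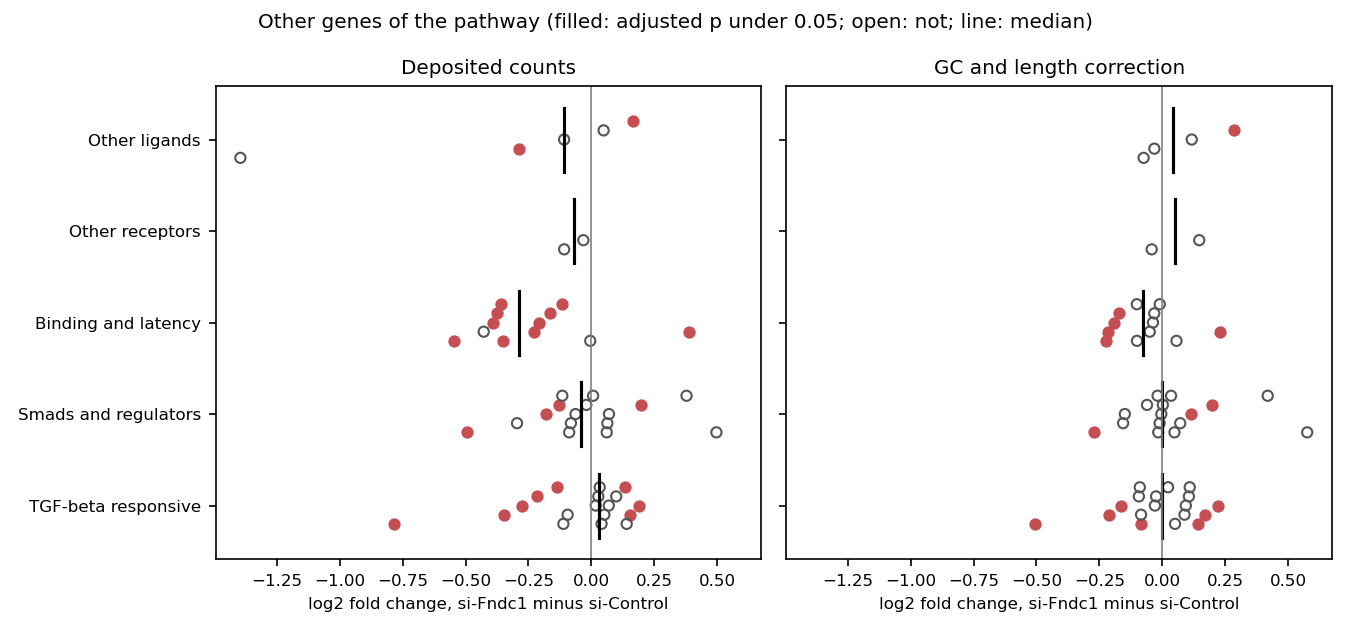
log2 fold change (x axis, si-*Fndc1* minus si-Control) of the tested genes in 5 lists of the pathway, from the deposited counts (left) and with the GC and length correction (right), filled where the adjusted p is under 0.05, with a line at each list's median. The median of the binding and latency list is -0.29 on the left and -0.07 on the right, and *Gdf1*, the open point at -1.40, was not called (adjusted p = 0.360).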

How the data were processed

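The data are mRNA sequencing of C2C12 cells, 5 si-Control and 5 si-*Fndc1* libraries, grouped by their titles. The authors deposited, for 55359 genes, raw read counts and FPKM values, which divide counts by length and library size and stand at 0.0001 where no read was counted (taken as 0 here). Aligners and builds differ between sources: TopHat, mm10 and htseq-count in the methods, STAR and mm9 in the description of the series, while the submitters' processing notes list cutadapt 1.9 and GRCm39. Coordinates of genes are as the table lists them, and those of the promoter windows are of GRCm38.p6. These sets should not be joined: *Mstn* is listed from chr1:53100799, while its window ends at chr1:53061639. Use of strand in counting is not stated in the sources used here. The methods name 4 libraries, not identified, and all 10 were used.

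Counts of genes at or above a mean FPKM of 0.5 were tested by edgeR 4.0.16 (quasi-likelihood test, TMM factors from 0.99 to 1.005, group only) in R 4.3.3, with Benjamini-Hochberg adjustment over all tested genes. A standard error is the log2 fold change divided by the square root of F. The alternatives were RLE and upper-quartile factors, DESeq2 1.42.0 (the tool of the study), limma 3.58.1 on counts and on log2 FPKM, other filters, each library left out, a replicate block, and an offset from splines (5 degrees of freedom) of log counts on length and on the GC content of NCBIM37 transcripts, for 11185 genes. The main edgeR fit and a limma fit were tested on simulated data. The other fits, among them those with the GC and length correction, were not. Libraries of a group were no near copies (chi-square per degree of freedom at least 41.5).

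The 10 genes, the lists and the rule for naming (the 10 genes, *Fndc1*, the 3 smallest p-values of each pathway list, and the 3 profiles most like that of the member with the smallest p-value) were chosen with earlier results of these data known. Markers and overlapping neighbours are named beside the results they touch. Tables were handled in Python 3.11.15.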

Additional observations from a re-analysis of the deposited data

How the results depend on the processing

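*Tgfb3* and *Tgfbr3* kept their direction and their call under all 24 alternatives, and *Tgfb2* under all but those with the GC and length correction. The call of *Tgfb3* was at the threshold with that correction and the replicate block (edgeR adjusted p = 0.04998, against 0.00726 for *Tgfbr3*). Over the genes named by rule and their alternatives, 513 of 549 log2 fold changes kept direction and side of the threshold, 17 lost their call, 7 gained one and 12 turned direction. With the GC and length correction, 2672 genes were called in place of 4663 (4244 of the same genes were called uncorrected), and 1752 with the replicate block added. The log2 fold changes that turned were, without and with the block, -0.012 and -0.013 for *Tgfbr1*, -0.122 and -0.119 for *Acvr2a*, 0.147 and 0.143 for *Eng*, 0.114 and 0.115 for *Pmepa1* and 0.035 and 0.034 for *Ski*. *Eng* also ran from -0.078 to 0.027 with each library left out, turning without si-Control replicate 3 (0.00) and si-*Fndc1* replicate 1 (0.027). The cause was not tested.

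No pairing of the libraries by replicate number was seen (correlation of same-numbered deviations -0.06 to 0.06, with 1 of the 5 si-Control libraries correlating best with its own number). A pairing with small effects would not be seen this way. The replicate block alone gave 3572 genes called, with *Tgfb2*, *Tgfb3* and *Tgfbr3* again the calls among the 10 genes, and of the genes named by rule it ended only the call of *Ski* (adjusted p = 0.0946). *Tgfbr1* passed with upper-quartile factors (adjusted p = 0.0490) and *Tgfbr2* with quantile-normalized values in limma (adjusted p = 0.0319). DESeq2 called 5019 genes, and leaving out each library in turn left 4000 to 4627. *Mstn* and *Acvr2b* could be fitted only without the filter or with edgeR's own, and at their depth a change is not resolved.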
